A study of Mus musculus with 6 samples.

Results

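The genes described here make sterols or control how much is made. They were chosen by gene symbol from a fixed set of 8, and 7 of the 8 were among the 7373 rows of the deposited table: Hmgcs1, Idi1, Fdps, Fdft1, Sqle, Insig1 and Srebf2. Lss, which encodes the enzyme that closes the sterol ring system, has no row under its symbol and was not analysed here. The mice were adult males of FVB/N, an inbred strain, and RNA of their kidneys was sequenced. The 3 transgenic kidneys came from mice that overexpress CryAB, a small heat shock protein, carrying the R120G missense mutation, and were taken before heart failure set in. The transgene is driven by the α-myosin heavy chain promoter, which is active in heart muscle cells, and not in kidney cells. The 3 control kidneys came from FVB/N mice of the same sex and matched age. The labels give no age and say nothing of how many animals the samples stand for, so the p-values rest on the spread among samples, which may be technical.

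Cells build cholesterol from acetyl-CoA through mevalonate, isoprenoid units and squalene, which is then oxidised and closed into a ring. When sterol in the endoplasmic reticulum is scarce, the protein SCAP escorts SREBP2, the product of Srebf2, to the Golgi, where it is cut and released to switch on the genes of the pathway. INSIG proteins hold SCAP back when sterol is plentiful, and Insig1 is itself an SREBP target. In the kidney, tubule cells both make sterol and take up lipoprotein cholesterol.

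SREBP2 acts with the factors NF-Y and Sp1 at promoters, so the promoter windows of the genes are shown first. RefSeq windows (GRCm38.p6, the assembly that mm10 names) were found for 4 of the 7 genes, all on the + strand. Capitals mark 8-base matches to TCACNCCA, the core of the sterol regulatory element, and matches to GGGCGG (the Sp1 box) and CCAAT (the NF-Y box), each searched on both strands. The sequences run 5′ to 3′.
Hmgcs1, chr13:119690101-119690400: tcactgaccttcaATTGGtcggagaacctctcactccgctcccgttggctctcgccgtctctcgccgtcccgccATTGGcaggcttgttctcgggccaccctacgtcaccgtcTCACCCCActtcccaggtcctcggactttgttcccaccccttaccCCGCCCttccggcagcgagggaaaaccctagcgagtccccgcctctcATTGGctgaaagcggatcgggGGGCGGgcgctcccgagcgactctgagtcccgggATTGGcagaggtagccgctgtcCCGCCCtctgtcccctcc
Idi1, chr13:8885356-8885655: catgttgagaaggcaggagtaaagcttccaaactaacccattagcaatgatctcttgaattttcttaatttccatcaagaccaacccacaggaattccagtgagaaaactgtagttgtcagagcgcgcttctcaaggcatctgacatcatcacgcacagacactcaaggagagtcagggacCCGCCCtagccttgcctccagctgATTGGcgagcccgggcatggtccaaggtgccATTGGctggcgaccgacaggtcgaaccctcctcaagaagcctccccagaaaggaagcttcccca
Insig1, chr5:28071162-28071461: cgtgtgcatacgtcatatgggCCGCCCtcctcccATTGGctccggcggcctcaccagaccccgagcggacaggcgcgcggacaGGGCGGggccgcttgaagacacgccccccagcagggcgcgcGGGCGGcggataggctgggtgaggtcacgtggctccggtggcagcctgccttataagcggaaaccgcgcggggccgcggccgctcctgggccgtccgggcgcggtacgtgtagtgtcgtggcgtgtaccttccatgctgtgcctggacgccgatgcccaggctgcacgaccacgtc
Srebf2, chr15:82147019-82147318: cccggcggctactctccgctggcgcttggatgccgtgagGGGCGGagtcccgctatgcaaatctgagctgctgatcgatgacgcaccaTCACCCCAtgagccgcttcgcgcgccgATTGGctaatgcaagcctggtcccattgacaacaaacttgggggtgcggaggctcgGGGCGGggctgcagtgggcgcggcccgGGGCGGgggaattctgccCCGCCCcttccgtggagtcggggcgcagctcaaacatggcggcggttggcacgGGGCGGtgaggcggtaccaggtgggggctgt
Counted from the transcription start, the match to the sterol element core, TCACCCCA, began at position -137 in Hmgcs1 and at -162 in Srebf2, while the windows of Idi1 and Insig1 held none. Over all 5978 genes of the table with a window, 4.65% held this core. Of 13 sterol synthesis genes with a window, 2 held it, Hmgcs1 and the sterol methyl oxidase gene Sc4mol. All 4 windows held an Sp1 box, against 70.4% of all genes, and all 4 an NF-Y box, against 42.4%. Hmgcs1 held 4 NF-Y boxes, at -237, -176, -45 and 11. A match is a string of letters and not a measured binding site.

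The libraries held between 23.5 and 47.6 M estimated counts over the listed genes, and the 7 genes had between 634 and 19562 counts in any library. In control kidney 3 the 178 listed genes of X and Y were all at 0, whereas no other gene was, and these were left out of the fit. Over the remaining genes control kidney 3 also stood apart: the chi-square of counts per degree of freedom was 82.6 to 152 in its 5 pairs with other libraries, against 23.3 to 61.5 in the 10 other pairs, a measure that also grows with depth, and this library was the deepest at 47.6 M. Several results that rest on this library are given with and without it. The tissue showed its defining transcripts: all 9 proximal tubule markers and all 7 markers of the thick ascending limb and distal nephron were present, with summed levels of 61450 to 64708 and 3690 to 4024 CPM (read counts scaled to the size of the library) in transgenic kidneys, against 61877 to 70653 and 3935 to 4366 CPM in control kidneys. Most of the first sum was the androgen-regulated gene Kap, at 45318 to 50386 CPM in transgenic kidneys, against 47457 to 55924 CPM in control kidneys, and the other 8 summed to 14322 to 16131 CPM in transgenic kidneys, against 14420 to 14941 CPM in control kidneys. Cryab, the mouse gene of the transgene's product, stood at 186, 178 and 194 CPM in transgenic kidneys, against 210.1, 223 and 292 CPM in control kidneys, and its difference did not pass the test (log2 fold change -0.38 ± 0.13, SE; adjusted p = 0.997 by Benjamini-Hochberg over all genes, edgeR quasi-likelihood test). All transgenic kidneys were below all controls, where 3.02% of all genes separated in that direction. Control kidney 3 was the highest, and no Cryab difference without it is given here.

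The comparison of transgenic with control kidneys asked whether heart muscle disease that has not yet caused failure is accompanied by differences in these transcripts. None of the 7 genes passed the test over all 7194 genes (edgeR quasi-likelihood test), and in none of them did the 3 transgenic kidneys separate from the 3 controls. Over all genes tested, 1 was called, or 0.0139%, and 5.98% separated the groups without overlap (2.96% higher and 3.02% lower in transgenic kidneys), so a count of 0 among 7 is not unlike the table as a whole. No member had an unadjusted p under 0.05, against 131 of all genes; DESeq2 called none of the 7 either. Fold differences lay between 0.859 for Idi1 and 1.09 for Srebf2.

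Hmgcs1 (gene ID 208715; chromosome 13, 119690351 to 119708260, mm10) encodes the cytosolic HMG-CoA synthase, which makes the precursor of mevalonate. It stood at 379, 461 and 371 CPM in transgenic kidneys 1, 2 and 3, against 464, 420.3 and 420.4 CPM in control kidneys 1, 2 and 3. Transgenic kidneys 1 and 3 were below all controls, while transgenic kidney 2 was level with the highest control. The means were 404 ± 49.5 CPM in transgenic kidneys and 435 ± 25.2 CPM in control kidneys (SD, n = 3 each), a log2 fold change of -0.11 ± 0.10 (SE; adjusted p = 0.997, edgeR quasi-likelihood test). Without transgenic kidney 2 the difference was -0.21, without transgenic kidney 3 it was -0.05, and without transgenic kidney 1 or control kidney 1 it was -0.06.

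Idi1 (gene ID 319554; chromosome 13, 8885606 to 8892396, mm10) encodes the isomerase that turns isopentenyl diphosphate into its reactive partner, dimethylallyl diphosphate. It varied most of the 7, at 50.9, 82.1 and 58.8 CPM in transgenic kidneys, against 81.6, 63.6 and 77.8 CPM in control kidneys. As in Hmgcs1, transgenic kidneys 1 and 3 were below all controls, and here transgenic kidney 2 was the highest of all. The largest value was 1.61 times the smallest, although the group means of 63.9 ± 16.2 CPM in transgenic kidneys and 74.3 ± 9.49 CPM in control kidneys (SD, n = 3 each) were within their spread (log2 fold change -0.22 ± 0.18, SE; adjusted p = 0.997, edgeR quasi-likelihood test). Without transgenic kidney 2 the difference was -0.44 (unadjusted p = 0.0219, adjusted p = 0.9999 with edgeR), and without transgenic kidney 1 it was -0.08.

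Fdps (gene ID 110196; chromosome 3, 89093588 to 89101967, mm10) encodes farnesyl diphosphate synthase, whose product feeds both sterols and protein prenylation. It stood at 22.3, 28.1 and 24.03 CPM in transgenic kidneys, against 29.2, 22.4 and 27.6 CPM in control kidneys. Transgenic kidney 1 and control kidney 2 were nearly equal at the bottom, and transgenic kidney 2 and control kidney 1 were at the top. The log2 fold change was -0.09 ± 0.14 (SE; adjusted p = 0.997, edgeR quasi-likelihood test), and -0.20 without control kidney 2, -0.19 without transgenic kidney 2 and -0.015 without control kidney 1. Its counts are uncertain, since 64.1% of the 50-base words of its GENCODE transcripts also occur in transcripts of other genes: 57.3% in Gm43738, a gene annotated across it on the same strand, and 29.7% in the processed pseudogene Gm3571. Of the words of Idi1 28.6% occur in other genes, 19.97% in the processed pseudogene Gm13502, and of those of Hmgcs1 12.6%, in Gm48342, an antisense gene that covers 12.1% of its exon bases.

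**Figure D1:**
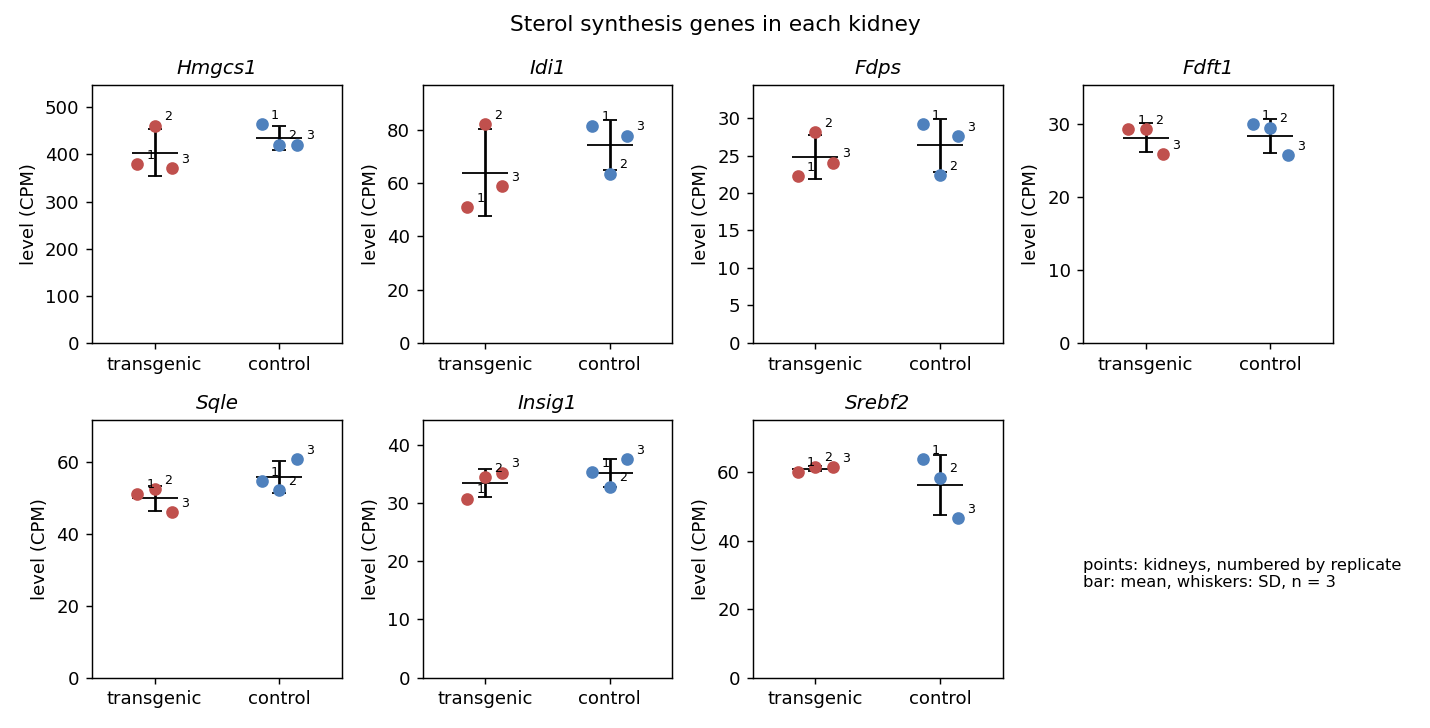
Level in CPM (vertical axis, from 0) of the 7 sterol genes in 3 transgenic (red, left) and 3 control (blue, right) kidneys; points are kidneys numbered by replicate, bars are means and whiskers SD. The groups overlap in every panel, transgenic kidney 2 lies above the other transgenic kidneys in Hmgcs1, Idi1 and Fdps, and the 46.5 CPM of control kidney 3 stands below the rest in Srebf2.

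Fdft1 (gene ID 14137; chromosome 14, 63145150 to 63181687, mm10) encodes squalene synthase, the first step given over to sterols alone. It varied little, at 29.3, 29.4 and 25.9 CPM in transgenic kidneys, against 30.02, 29.5 and 25.8 CPM in control kidneys. Replicate 3 of each group was the low one, and the largest value was 1.16 times the smallest. The log2 fold change was -0.012 ± 0.11 (SE; adjusted p = 0.997, edgeR quasi-likelihood test), with a 95% interval of 0.839-fold to 1.17-fold. Its exon bases overlap those of Ctsb, the gene of the lysosomal protease cathepsin B, on the other strand: 18.3% of the exon bases of Fdft1 are shared. Of its 50-base words 30.7% occur in other genes, 10.9% in the processed pseudogene Gm6781. Ctsb was far more abundant, at 605 ± 48.6 CPM in transgenic kidneys and 606 ± 50.1 CPM in control kidneys (SD, n = 3 each). No source used here states that counting kept strands apart, so part of the Fdft1 counts may be Ctsb reads.

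Sqle (gene ID 20775; chromosome 15, 59315092 to 59331193, mm10) encodes squalene epoxidase, an oxygen-dependent and rate-limiting enzyme of the pathway. It stood at 51.2, 52.4 and 45.9 CPM in transgenic kidneys, against 54.7, 52.1 and 60.8 CPM in control kidneys. Transgenic kidney 2 lay just above control kidney 2, and that was the only overlap between the groups. The means were 49.8 ± 3.42 CPM in transgenic kidneys and 55.8 ± 4.45 CPM in control kidneys (SD, n = 3 each), a log2 fold change of -0.17 ± 0.10 (SE; adjusted p = 0.997, edgeR quasi-likelihood test). Of the 7 genes it had the smallest unadjusted p, 0.125, with a 95% interval of 0.764-fold to 1.04-fold. Without control kidney 3, the highest of all, the difference was -0.10.

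Insig1 (gene ID 231070; chromosome 5, 28071412 to 28078662, mm10) encodes the sterol-sensing anchor that retains SCAP in the endoplasmic reticulum. It stood at 30.7, 34.4 and 35.2 CPM in transgenic kidneys, against 35.3, 32.7 and 37.5 CPM in control kidneys. The groups overlapped, and transgenic kidney 1 was the lowest of the 6. The log2 fold change was -0.07 ± 0.10 (SE; adjusted p = 0.997, edgeR quasi-likelihood test), and -0.12 without control kidney 2, -0.02 without control kidney 3 and -0.015 without transgenic kidney 1.

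Srebf2 (gene ID 20788; chromosome 15, 82147269 to 82205379, mm10), the gene of the transcription factor itself, also carries the microRNA gene Mir33 within its bounds. It was even across the transgenic kidneys, at 60.1, 61.6 and 61.4 CPM, against 63.8, 58.4 and 46.5 CPM in control kidneys. The positive log2 fold change of 0.12 ± 0.12 (SE; adjusted p = 0.997, edgeR quasi-likelihood test) rested on control kidney 3, and without that library it was -0.0012 ± 0.073. Srebf2 was the only one of the 7 with a log2 fold change above 0 when all 6 libraries were used, and without control kidney 3 all 7 were below 0.

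The 7 genes had a median log2 fold change of -0.09, with 6 below 0 and 1 above, beside a median of 0.001 over all genes, where 3619 lay above 0 and 3574 below. The median was -0.19 without transgenic kidney 2 and -0.04 without transgenic kidney 1. The 95% intervals of the fold differences ran from 0.647 to 1.14 for Idi1, from 0.787 to 1.10 for Hmgcs1, from 0.755 to 1.17 for Fdps, from 0.814 to 1.11 for Insig1 and from 0.897 to 1.32 for Srebf2. A p above the threshold does not show that the levels were equal.

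**Figure D2:**
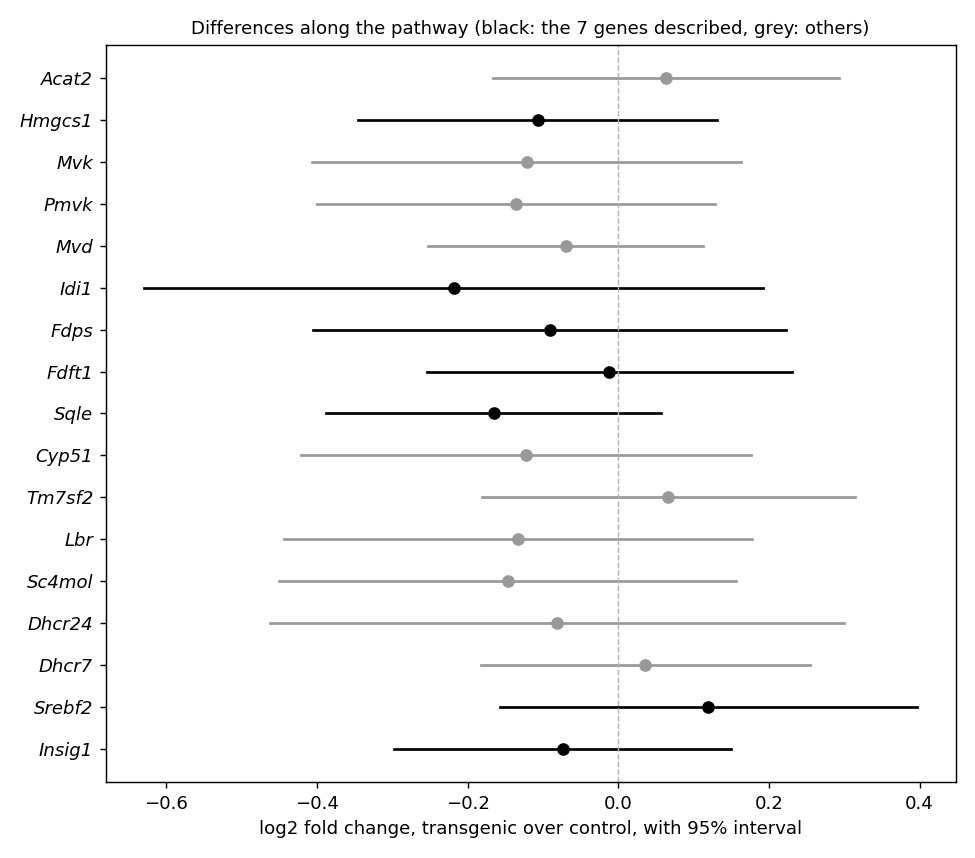
Log2 fold change of transgenic over control kidneys (horizontal axis) with its 95% interval from the edgeR fit, for 17 genes in pathway order with the regulators last; black marks the 7 genes described and grey the others. Every interval includes 0, from -0.22 for Idi1 to 0.12 for Srebf2.

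Levels were compared between genes per length, as CPM per kilobase of GENCODE exons, over all 6 kidneys. Hmgcs1 was the most abundant at a median of 91.5 CPM per kilobase (80.8 to 101), followed by Idi1 at 20.2 (14.5 to 23.4); neither range touched that of the next gene. Insig1 followed at a median of 11.3 CPM per kilobase (9.93 to 12.1), Sqle at 9.42 (8.28 to 10.96), Srebf2 at 8.46 (6.47 to 8.88), Fdft1 at 6.94 (6.10 to 7.10) and Fdps at 6.14 (5.29 to 6.93). From Insig1 down the ranges of neighbours overlapped over the kidneys. Within a kidney, Insig1 was above Sqle and Srebf2 above Fdft1 in 6 of 6, while Sqle was above Srebf2 and Fdft1 above Fdps in 5 of 6. These counts use the same length for a gene in every kidney, so they do not test the order against another length. The exon length counts all annotated isoforms, and the isoforms used in the kidney were not measured. It was 4208 bases for Fdps, 5546 for Sqle and 3093 for Insig1. Their protein-coding transcripts held 1798, 2757 and 2648 distinct 50-base words. With shorter lengths for Fdps and Sqle, the order from Insig1 down could change, and the shared words of Fdps make its level uncertain as well.

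The wider network was read from 6 lists of sterol and fatty acid genes, which hold 68 genes with the 7 among them; 46 were tested. None passed the test, and none separated the groups, beside 0.0139% and 5.98% of all genes tested. Of the 46, 15 had a log2 fold change above 0 and 31 below, with a median of -0.07, beside 3619 above and 3574 below and a median of 0.001 over all genes. The split was 21 above and 25 below both with limma array weights (median -0.015) and without control kidney 2 (median -0.0073). Without control kidney 3 it stayed at 15 above and 31 below, with a median of -0.038. In the mevalonate arm, with 7 of 8 genes tested and a median of -0.11, the kinase genes Pmvk and Mvk were at -0.14 ± 0.12 and -0.12 ± 0.12 (SE). When 1 library was left out, Pmvk ranged from -0.18 to -0.07 and Mvk from -0.19 to -0.05, both nearest to 0 without transgenic kidney 1.

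In the squalene to cholesterol arm, with 8 of 14 genes tested and a median of -0.10, Sc4mol, which encodes a sterol methyl oxidase, was at -0.15 ± 0.13 (SE), the sterol reductase gene Lbr at -0.13 ± 0.14, and the lanosterol demethylase gene Cyp51 at -0.12 ± 0.13. When 1 library was left out, Sc4mol ranged from -0.23 without transgenic kidney 2 to -0.03 without control kidney 1, Lbr from -0.22 without transgenic kidney 2 to -0.0093 without transgenic kidney 1, and Cyp51 from -0.25 without transgenic kidney 1 to -0.018 without control kidney 3. With limma array weights Sc4mol was at -0.32 and Cyp51 at -0.0096. Nsdhl and Ebp of this arm lie on X. Nsdhl, a sterol dehydrogenase gene, stood at 80.5, 91.6 and 79.8 CPM in transgenic kidneys, against 87.8 and 87.4 CPM in control kidneys 1 and 2. Ebp, a sterol isomerase gene, stood at 150.2, 124 and 117 CPM in transgenic kidneys, against 123 and 124 CPM in control kidneys 1 and 2; both are listed at 0 in control kidney 3.

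The list of SREBP processing and sensing, with 9 of 10 genes tested, had a median log2 fold change of 0.0063. It held the ubiquitin ligase gene Rnf139 at -0.20 ± 0.21 (SE), Insig2, the second anchor of SCAP, at -0.17 ± 0.19, and Ubxn4 at 0.08 ± 0.10. Without control kidney 3 the direction of 2 of them turned, with Rnf139 at 0.11 and Insig2 at 0.11; without control kidney 2 Rnf139 was at -0.38 and Insig2 at -0.32, and with limma array weights Rnf139 was at -0.018 and Insig2 at 0.04. Ubxn4 was at 0.019 without transgenic kidney 1 and at 0.13 without transgenic kidney 2. Among 7 of 13 genes of sterol uptake and transport, with a median of -0.03, the endosomal transfer protein gene Stard3 was at 0.12 ± 0.09, the lysosomal sterol carrier gene Npc2 at -0.10 ± 0.09, the lysosomal lipase gene Lipa at -0.13 ± 0.19 and Gramd1b at 0.06 ± 0.10. When 1 library was left out, Stard3 ranged from 0.09 to 0.17 and Npc2 from -0.16 without transgenic kidney 2 to -0.04 without control kidney 3. Lipa was at -0.29 without transgenic kidney 3, 0.04 without control kidney 3 and 0.0049 without transgenic kidney 1, and Gramd1b at -0.03 without transgenic kidney 1 and 0.12 without transgenic kidney 2. Among 4 of 8 genes of efflux, esterification and LXR, with a median of -0.03, the ester hydrolase gene Nceh1 was at -0.09 ± 0.08, the LXR genes Nr1h2 and Nr1h3 at 0.13 ± 0.15 and 0.0079 ± 0.10, and Apoe at -0.06 ± 0.10. Without control kidney 3 Nr1h2 was at -0.04 and Nr1h3 at -0.03, without control kidney 2 Nr1h2 was at 0.28, and Nr1h3 ranged from -0.06 without transgenic kidney 2 to 0.05 without transgenic kidney 1. Nceh1 ranged from -0.12 to -0.06 when 1 library was left out, and Apoe from -0.14 without control kidney 1 to -0.0071 without control kidney 2. With limma array weights Apoe was at 0.07, Nr1h3 at -0.03 and Nceh1 at -0.025.

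Among 11 of 15 genes of fatty acid synthesis, which answer mainly to SREBP1, the median was -0.07. The malic enzyme gene Me1 was at -0.16 ± 0.09 (SE), with 507, 526 and 563 CPM in transgenic kidneys, against 598, 554 and 634 CPM in control kidneys, where transgenic kidney 3 overlapped control kidney 2. The desaturase genes Scd2 and Scd1 were at -0.19 ± 0.11 and -0.19 ± 0.17, and the fatty acid synthase gene Fasn at -0.21 ± 0.26. When 1 library was left out, Me1 ranged from -0.21 to -0.11, Scd2 from -0.28 to -0.10 (nearest to 0 without control kidney 3) and Scd1 from -0.32 to -0.03 (nearest to 0 without transgenic kidney 2). With limma array weights Scd2 was at -0.020, Scd1 at 0.05 and Fasn at -0.10. Fasn was at 0.18 without control kidney 2 and at -0.43 without control kidney 3. By edgeR's quasi-likelihood test the adjusted p of every gene tested in the 6 lists was 0.997.

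The kidney samples of a group differed among themselves by more than the groups did, a spread that may be technical. The mean deviation of the 7 genes from their own averages over 6 kidneys, on the log2 scale, was -0.12, 0.10 and -0.10 in transgenic kidneys 1, 2 and 3, against 0.13, -0.04 and 0.03 in control kidneys 1, 2 and 3. The group means were -0.04 in transgenic kidneys and 0.04 in control kidneys, beside an SD of 0.105 within groups. Control kidney 1 was above the average in all 7 genes and highest in 4, while transgenic kidney 2 was above it in 6. Transgenic kidney 1 was lowest in 3 genes, transgenic kidney 3 in 2 and control kidney 3 in 2, and control kidney 3 was also highest in 2. The SD of a member over the 6 kidneys was 0.14 at the median on the log2 scale, the same as the 0.14 of all genes, so the 7 were not more variable than the table as a whole.

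Of the 21 pairs of members 14 had a positive r across the kidneys, with a median of 0.448, from -0.713 for Sqle with Srebf2 and -0.610 for Fdft1 with Insig1 to the 3 highest, those among Hmgcs1, Idi1 and Fdps, chosen after their values were seen. The 2 lowest had an exact permutation p of 0.188 and 0.213 (adjusted p = 0.464 each; rho -0.086, p = 0.919, adjusted p = 0.965, and rho -0.257, p = 0.658, adjusted p = 0.768; r 0.793 and 0.672 without transgenic kidney 3 and control kidney 3). Over the 6 libraries, with log2 CPM, Pearson's r was 0.895 between Hmgcs1 and Idi1 (exact permutation p = 0.0139, adjusted p = 0.292 over 21 pairs; Spearman's rho 0.886, p = 0.0333, adjusted p = 0.306). Between Idi1 and Fdps r was 0.923 (exact permutation p = 0.0361, adjusted p = 0.379; rho 0.886, p = 0.0333, adjusted p = 0.306). Between Hmgcs1 and Fdps r was 0.769 (exact permutation p = 0.107, adjusted p = 0.449; rho 0.829, p = 0.0583, adjusted p = 0.306). No pair passed after adjustment over the 21. The share of positive r among pairs of other genes was not counted, so 14 of 21 has no comparison here. With the mean of the other members, r ran from -0.191 for Srebf2 and 0.176 for Fdft1 to 0.937 for Hmgcs1. Without transgenic kidneys 1 and 3, the 2 farthest from the median, r was 0.728 for Hmgcs1 with Idi1, 0.987 for Idi1 with Fdps and 0.690 for Hmgcs1 with Fdps. Srebf2 had an r of 0.081 with Hmgcs1 (exact permutation p = 0.864, adjusted p = 0.960; rho 0.429, p = 0.419, adjusted p = 0.587; 0.752 without the same 2 kidneys). All points share library and depth.

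The order of the kidneys by the mean of the 7 genes was compared with that of 10 other sterol synthesis genes tested, which that mean does not contain. Sc4mol followed it, at 20.6, 25.6 and 23.1 CPM in transgenic kidneys, against 29.5, 23.3 and 23.98 CPM in control kidneys: r was 0.918 (exact permutation p = 0.00139, adjusted p = 0.0139 over 10 genes; rho 1, p = 0.00278, the smallest that rank orders without ties can give here, adjusted p = 0.0278). Without transgenic kidney 1 and control kidney 1, the ends of the range, r was 0.949 for Sc4mol. Of the 10 genes, 6 had a positive r, with a median of 0.431 beside 0.013 over all genes. Acat2, a thiolase gene at the head of the pathway, had an r of -0.733 (exact permutation p = 0.0833, adjusted p = 0.236; rho -0.657, p = 0.175, adjusted p = 0.292; r -0.138 without the same 2 kidneys), and Tm7sf2, a sterol reductase gene, one of -0.734 (exact permutation p = 0.113, adjusted p = 0.236; rho -0.771, p = 0.103, adjusted p = 0.257; r -0.817 without them). Transgenic kidney 2 and control kidney 1, where the mean of the 7 was highest, were also alike over the whole table. Their chi-square per degree of freedom, 23.3, was the lowest of all pairs. The r of their deviations across genes, 0.415, was the highest between the groups. Over all genes, members included, 0.570% had an r over 0.9 with the mean. Whether this order of the kidneys is particular to sterol genes was not tested.

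**Figure D3:**
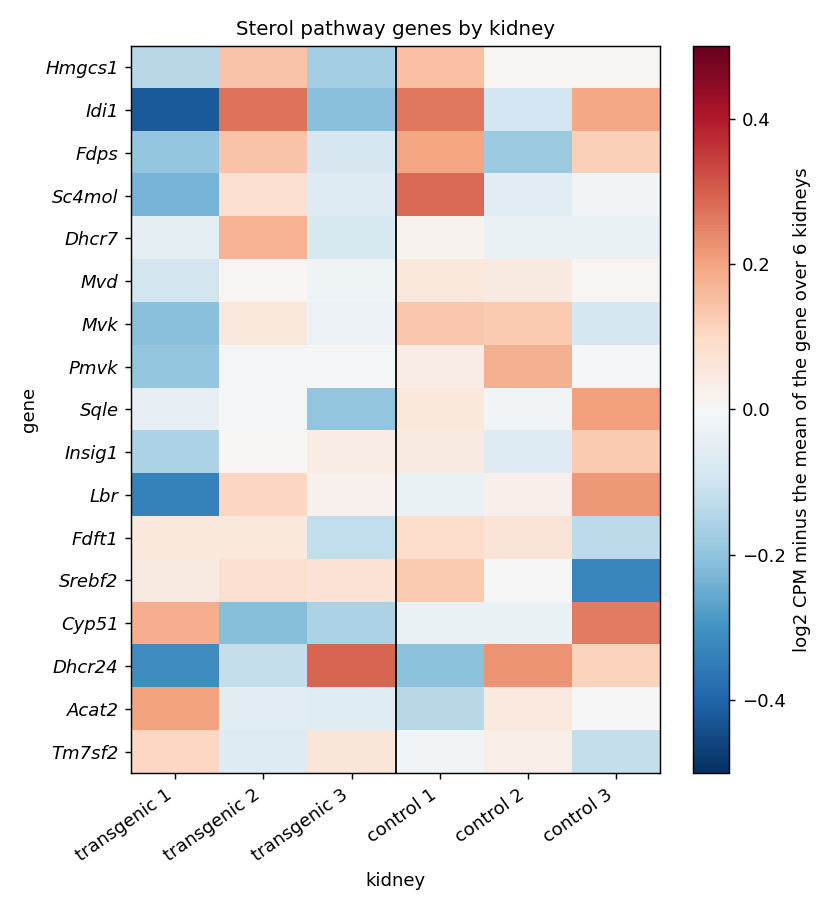
Log2 CPM of 17 sterol pathway genes (rows) minus the mean of each gene over 6 kidneys (columns, transgenic left of the line, control right of it), red above and blue below that mean. Hmgcs1, Idi1, Fdps and Sc4mol are red in transgenic kidney 2 and control kidney 1 and blue in transgenic kidneys 1 and 3, while Srebf2 is lowest in control kidney 3.

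Transcripts of fat cells also differed by kidney, and frozen pieces of whole kidney can include fat. Of 11 fat cell markers 3 are listed, and the defining markers Adipoq and Plin1 are not among the listed genes. The summed level of Cfd, Fabp4 and Car3 was 166, 109 and 159 CPM in transgenic kidneys, against 89.6, 294 and 122 CPM in control kidneys. Most of it was Fabp4, which made up 87.5 CPM of the sum in control kidney 1. Fabp4 stood at 121.5 CPM in control kidney 3 and 99.1 CPM in transgenic kidney 2, where Cfd stood at 0.043 and 6.87 CPM. The sum therefore does not order the kidneys as Cfd does. The lowest sum was in control kidney 1, where the sterol mean was highest, but Cfd and Car3 were lowest in control kidney 3, at 0.043 and 0.88 CPM, against 0.22 and 1.88 CPM in control kidney 1. Over the 6 libraries r between this sum and the mean of the sterol genes, both on the log2 scale, was -0.696 (exact permutation p = 0.118, adjusted p = 0.210 over 3 marker sums; rho -0.829, p = 0.0583, adjusted p = 0.175), and -0.619 without transgenic kidney 1 and control kidney 1. Taken singly, Cfd, Fabp4 and Car3 were at r of -0.628, -0.689 and -0.683 with that mean. In bulk samples, fewer cells of a type and less RNA per cell cannot be told apart, and the part of fat in the order of the kidneys was not tested.

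The adrenal gland lies beside the kidney and makes steroids from sterols. Of its 10 markers 2 are listed, the mitochondrial ferredoxin gene Fdx1 and Akr1b7. The defining steroid synthesis genes Cyp11a1, Cyp11b1 and Star are not among the listed genes. The 2 that are listed therefore cannot tell whether adrenal tissue was present. Akr1b7 stood at 6.88, 7.79 and 6.47 CPM in transgenic kidneys, against 4.49, 5.67 and 5.44 CPM in control kidneys, all 3 transgenic kidneys above all 3 controls (log2 fold change 0.43 ± 0.17, SE; adjusted p = 0.997, edgeR quasi-likelihood test), where 2.96% of all genes separate in that direction. Fdx1 stood at 139, 143 and 124 CPM in transgenic kidneys, against 143, 125 and 153 CPM in control kidneys, and did not separate the groups. The 4 red cell markers tested summed to 615, 791 and 527 CPM in transgenic kidneys, against 965, 813 and 562 CPM in control kidneys. All 4 had a log2 fold change below 0, and 2 of them, Hbb-bs at -0.32 ± 0.13 (SE) and Hba-a2 at -2.64 ± 1.03, had an unadjusted p under 0.05 (edgeR quasi-likelihood test, adjusted p = 0.997). Hba-a2 stood at 1.05, 2.06 and 1.24 CPM in transgenic kidneys, against 14.2, 12.7 and 0.26 CPM in control kidneys, so that control kidney 3 was below every transgenic kidney; it is a near-identical copy of Hba-a1, and the split of reads between them is uncertain. Over the 6 libraries this sum had an r of 0.687 with the sterol mean on the log2 scale (exact permutation p = 0.140, adjusted p = 0.210 over 3 marker sums; rho 0.6, p = 0.242, adjusted p = 0.363), and of 0.461 without transgenic kidney 1 and control kidney 1. Its single genes were at r of 0.313 to 0.861, the highest being Hbb-bs. The 7 macrophage markers tested summed to 283, 325 and 346 CPM in transgenic kidneys, against 324, 371 and 325 CPM in control kidneys. Of the 7, 6 had a log2 fold change below 0, with a median of -0.22, and none had an unadjusted p under 0.05 (edgeR quasi-likelihood test). Their sum had an r of 0.113 with the sterol mean (exact permutation p = 0.831, adjusted p = 0.831; rho -0.029, p = 1, adjusted p = 1; r -0.676 without the same 2 kidneys). The part of these cells in the sterol values was not tested.

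**Figure D4:**
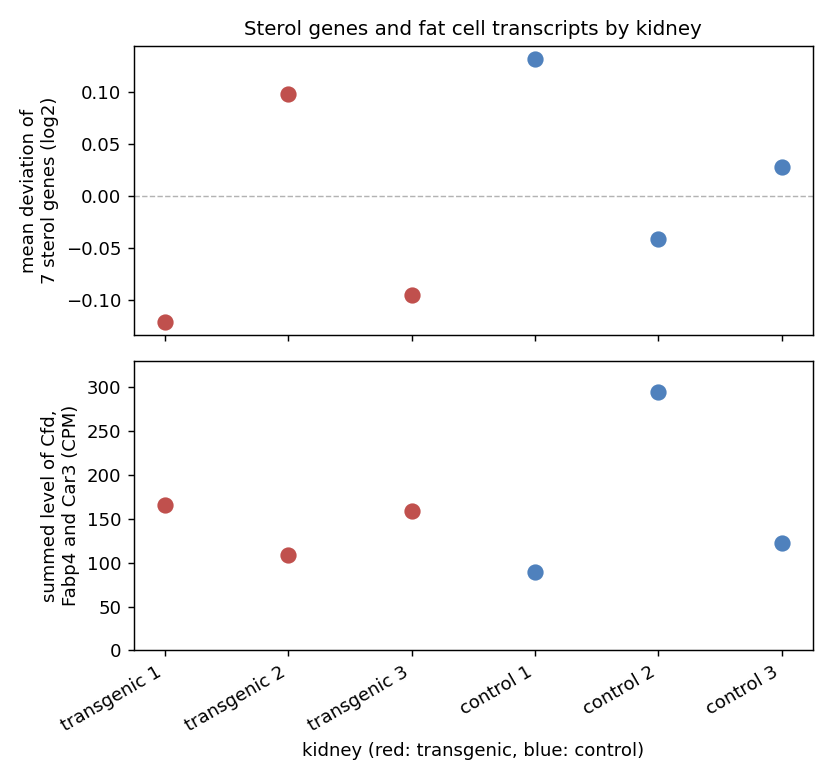
Upper panel: mean deviation of the 7 sterol genes from their averages (log2 scale) in each kidney; lower panel: summed level of Cfd, Fabp4 and Car3 in CPM, for transgenic (red) and control (blue) kidneys along the horizontal axis. Control kidney 1 has the highest sterol value, 0.13, and the lowest sum, 89.6 CPM, of which Fabp4 is 87.5 CPM.

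Outside the lists, the 8 genes whose log2 CPM over the 6 libraries was most like the mean of the sterol genes, by Pearson's r as a description, were Dgcr6 (0.989), Snord4a (0.974), Chuk (0.973), Tmem160 (0.969), Immp2l, Hddc2, Adhfe1 and Ddx18 (0.951). Chuk, which encodes a kinase of NF-κB signalling, stood at 119.6, 147 and 121 CPM in transgenic kidneys, against 143, 126 and 137 CPM in control kidneys. Of the 7191 genes above 0 in every library, 1.85% had an r over 0.8 with that mean, Sc4mol among them. The share also counts Hmgcs1 (0.958), Idi1 (0.959) and Fdps (0.915), whose r is raised because they are part of the mean.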

How the data were processed

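RNA of 3 transgenic and 3 control kidney samples was sequenced. Per the labels' protocols, kidneys were cut and frozen and RNA was purified on columns; the build was mm10, per the submitters' processing notes. Which aligner and counter were used is not given in the sources used here. Values were deposited by the authors as estimated counts. These are not whole numbers; per the file headers, genes were kept with a value called NRPKM of at least 5.0 in at least 2 of 6 samples. Of 24 columns of per-sample values, 12, headed Post_IRI, match none of these samples and were not used, nor were the 6 normalized columns. The columns used are headed Pre_IRI in both groups.

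Estimated counts were rounded. Genes of X and Y were left out, since all were at 0 in control 3, a choice made with that known. The main test was edgeR (version 4.0.16, R 4.3.3) quasi-likelihood with TMM, after filterByExpr (1 gene removed), adjusted by Benjamini-Hochberg at 0.05, two-sided. CPM use the TMM library sizes. DESeq2 (1.42.0) and limma (3.58.1) were alternatives. Taken alone, a gene in 3 against 3 samples could reach no exact permutation p under 0.1. Intervals are 95%. Chromosomes came from RefSeq GRCm38.p6, which matched 7356 of 7373 rows, and exons and shared 50-base words from GENCODE M21. No pair of libraries agreed within sampling noise (chi-square per degree of freedom 82.6 to 152 in the 5 pairs with control 3, and 23.3 to 61.5 in the 10 others).

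On simulated counts for 7194 genes with 200 changed in each of 5 runs, the edgeR test of 3 libraries against 3 recovered 99.8% of 2.4-fold and 62.2% of 1.5-fold changes. The adjusted threshold is easier to pass with 200 changed genes than in the real table, where 1 gene was called.

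The members and lists were chosen with earlier results of these data known. Named genes are the 7, the 4 of smallest p in each list, Cryab and the 8 of highest r with the sterol mean; Acat2, Tm7sf2, the X genes, Ctsb and the marker genes were named after their values were seen. Some genes of the pathway are not reported here.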

Additional observations from a re-analysis of the deposited data

How the results depend on the processing

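No member and no gene of the 6 sterol and fatty acid lists was called under any of 14 alternatives. The count of called genes over the whole table was 1, and became 0 with X and Y genes included (112 with an unadjusted p under 0.05 by edgeR; DESeq2 without X and Y called 2) and 0 to 2 when 1 library was left out (0 without control 1 or any transgenic kidney, 2 without control 3); fewer samples enter those fits, and the cause was not tested further. Of 91 member values under alternatives, 86 kept their direction. Of the 13 settings for each member, 6 left out a library. The others refit the same libraries, so their agreement adds little. The 5 reversals were 3 of Fdft1, each with 1 library left out, and 2 of Srebf2, with limma array weights and without control 3. Fdft1, at -0.012 with all libraries, ranged from -0.079 to 0.045 when 1 was left out. Srebf2 was at -0.028 with limma array weights, and ranged from -0.0012 to 0.22 when 1 library was left out, the lowest without control 3. With limma array weights all 7 members were below 0, and 2 had an unadjusted p under 0.05, Idi1 at -0.39 and Hmgcs1 at -0.20 (adjusted p = 0.497 and 0.533, limma), where 634 of all genes did, against 131 with edgeR. The median of the members ranged from -0.19 to -0.04 over the 13 alternatives that give one.

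Replicate numbers were not taken to pair the samples. Deviations of same-numbered kidneys correlated at 0.005, 0.019 and 0.340 across genes, and those of other pairs at -0.425 to 0.415. With 3 libraries a group this check cannot decide whether the samples are paired. With the replicate number as a block in edgeR, 1 gene and no member was called, and Idi1 was at -0.24. The 7 genes had at least 634 counts in each library, and in simulated data with 3 libraries a group 62.2% of 1.5-fold changes were recovered. Those data held 200 changed genes a run, while 1 gene was called here, so that share may be too high for these genes. They also held no library that stood apart as control 3 did. Only 1.5-fold and 2.4-fold changes were simulated, so the share does not cover differences as small as those of the members, 0.859-fold to 1.09-fold.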
